A study of Rattus norvegicus with 12 samples.

Results

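The lens is built from 2 cell populations. A single layer of epithelial cells covers the anterior face, and at the equator these cells leave the cell cycle, elongate and become fibre cells, which fill with crystallins and lose their nuclei. The switch is run by a small set of DNA-binding proteins: some keep the epithelium in its undifferentiated state, others start fibre elongation, crystallin transcription and the removal of organelles, and mutations in several of them cause cataract or small eyes in humans and mice. The transcripts of 10 such lens transcription factors (Pax6, Foxe3, Sox2, Tfap2a, Pitx3, Maf, Prox1, Hsf4, Sox1 and Gata3) were followed in rat lenses before and after cortical cataract. They were chosen by their known role in lens development, by a rule that uses no measured value, although earlier results of these data were known. A gene was represented by the probe set whose only annotated symbol was its own, and 9 of the 10 had exactly 1 such probe set among 18166 genes. Sox1, which activates γ-crystallin genes in mouse fibre cells, is not listed in the platform annotation and was not analysed here.

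RNA came from whole lenses of male rats, extracted from ground tissue and amplified before hybridization to GeneChip Rat Gene 2.0 ST arrays. ICR/Ihr rats, a strain with hereditary cataract, gave 3 arrays at 4 weeks of age without cataracts, 3 at 8 weeks and 3 at 10 weeks with cortical opacity. Sprague Dawley (SD) rats, which had no cataract, gave 1 array at each of the same ages, so strain, the hereditary cataract and the rearing colony cannot be told apart. Within ICR all clear lenses were 4 weeks old and all opaque ones 8 or 10 weeks, so age and opacity cannot be told apart either. No source says whether replicates were separate animals. The p-values therefore cover only the spread seen between arrays, which may be technical, and the number of arrays limits the precision. Values are log2 signals after Robust Multi-array Average (RMA) normalization, in which a difference of 1 is a change of 2-fold. A signal of 5 was taken as the limit of detection, after the study's exclusion of genes below 5 in all samples. It is a filter and not the lowest signal, since the median signal of an array was 3.25 to 3.37. All 9 members were at 5 or more on all 12 arrays.

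Between 3023 and 3934 genes reached 5 on an array, and arrays of the same ICR age correlated at 0.959 to 0.981 over all named genes, a description only. The 3 ICR arrays numbered 1, 1 per age, stood apart from the other 6. Deviations of same-numbered arrays from their age means correlated at 0.547 to 0.848 over the 9 pairs, against -0.75 to 0.508 between arrays of different numbers. Results are therefore also given with the replicate number as a block where this changed them. Of the marker lists for other eye tissues, retina, cornea, blood and macrophage, and vessel and muscle markers all stayed below 5 on every array. Of 13 ciliary body and iris markers, 4 reached 5 on at least 1 array at 10 weeks and 6 did at 4 weeks in ICR lenses. The log2 of their summed signal was 7.22 to 7.93 at 10 weeks and 8.24 to 9.87 at 4 weeks in ICR lenses, without overlap. In SD lenses it was 8.69, 9.12 and 7.71 at 4, 8 and 10 weeks, and the pigment genes Tyr, Tyrp1, Dct, Pmel and Mlana were not among the genes tested. Less RNA per cell and fewer cells of a type cannot be told apart in whole-lens RNA.

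In the RefSeq annotation of the rat build GRCr8 the epithelial regulators lie at chr3:112590034-112611771 (Pax6), chr5:133681684-133683266 (Foxe3), chr2:119465131-119467542 (Sox2) and chr17:24230064-24253219 (Tfap2a). The fibre regulators lie at chr19:60259200-60622145 (Maf), chr13:104196615-104251007 (Prox1), chr19:50057331-50068134 (Hsf4), chr16:83837689-83841703 (Sox1) and chr17:73544234-73575670 (Gata3). Pitx3, which acts in both compartments, lies at chr1:254942550-254955325. RefSeq promoter windows, from 250 bases before to 50 after a transcript start, were at hand for 6 of the 10 members and for 23 of 25 known target genes. They were searched on both strands for 3 short motifs that these proteins are known to bind: GAANNTTC (the core of a heat shock element, bound by Hsf4), TGCTGA (a Maf element half-site) and ACAAAG (a Sox core). No window of a member held any of them. The windows of Pax6, Maf and Gata3 belong to starts 562, 789 and 9314 bases inside the annotated gene, and only those of Foxe3, Sox2 and Pitx3 lie at its 5′ end, so these counts do not cover every member's outermost start. Some windows of the targets also lie inside the gene. Among the 23 targets, 1 held GAANNTTC, 10 held TGCTGA and 9 held ACAAAG, while 8.59%, 18.4% and 18.8% of all 33469 windows did.

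The 250 bases before the start are shown for 2 members whose age course differed most between the strains, Foxe3 and Gata3, and for 2 targets of Hsf4 that moved in opposite directions, Hspb1 and Dnase2b. Capitals mark a match to a motif, and the sequences without capitals held none. The Foxe3 window is chr5:133683267-133683516 on the minus strand, next to the annotated 5′ end. The Gata3 window is chr17:73553298-73553547 on the plus strand, at a start 9314 bases inside the annotated gene. The Hspb1 window is chr12:26432302-26432551 on the minus strand, next to the 5′ end. The Dnase2b window is chr2:238146559-238146808 on the minus strand, at a start 21483 bases inside the annotated gene. A match is a run of letters and not a shown binding site.
Foxe3: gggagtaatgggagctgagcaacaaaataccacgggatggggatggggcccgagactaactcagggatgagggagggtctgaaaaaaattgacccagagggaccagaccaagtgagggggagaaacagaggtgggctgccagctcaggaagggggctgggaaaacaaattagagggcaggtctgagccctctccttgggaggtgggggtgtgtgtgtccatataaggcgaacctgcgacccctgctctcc
Gata3: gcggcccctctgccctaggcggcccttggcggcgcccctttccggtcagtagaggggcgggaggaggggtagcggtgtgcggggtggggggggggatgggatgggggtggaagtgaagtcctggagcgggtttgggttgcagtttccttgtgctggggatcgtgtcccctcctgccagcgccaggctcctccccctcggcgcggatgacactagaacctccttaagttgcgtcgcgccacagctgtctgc
Hspb1: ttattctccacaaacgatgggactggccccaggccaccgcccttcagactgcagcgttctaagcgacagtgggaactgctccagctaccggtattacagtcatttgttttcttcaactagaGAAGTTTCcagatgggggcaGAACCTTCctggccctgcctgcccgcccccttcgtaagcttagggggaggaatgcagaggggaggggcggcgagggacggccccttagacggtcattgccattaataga
Dnase2b: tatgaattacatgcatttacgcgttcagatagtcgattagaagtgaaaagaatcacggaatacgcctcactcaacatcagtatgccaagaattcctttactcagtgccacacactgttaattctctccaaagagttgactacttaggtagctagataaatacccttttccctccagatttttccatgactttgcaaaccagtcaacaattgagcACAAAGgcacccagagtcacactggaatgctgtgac

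The first question was how the regulators changed with age in ICR lenses, over the weeks in which cortical opacity appeared. Maf and Gata3, which both act in fibre cells, were lower on every 8-week and 10-week array than on any 4-week array. At 10 weeks Maf was 1.66-fold and Gata3 1.56-fold lower than at 4 weeks on the linear scale. Both falls passed the threshold in the fit with the replicate block and not in the fit without it. Pax6 and Sox2, epithelial regulators, were lower on all 10-week arrays than on all 4-week arrays by smaller amounts that did not pass the test, and the epithelial regulator Foxe3 was slightly higher. Tfap2a, Pitx3, Prox1 and Hsf4 overlapped between the ages.

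**Figure D1:**
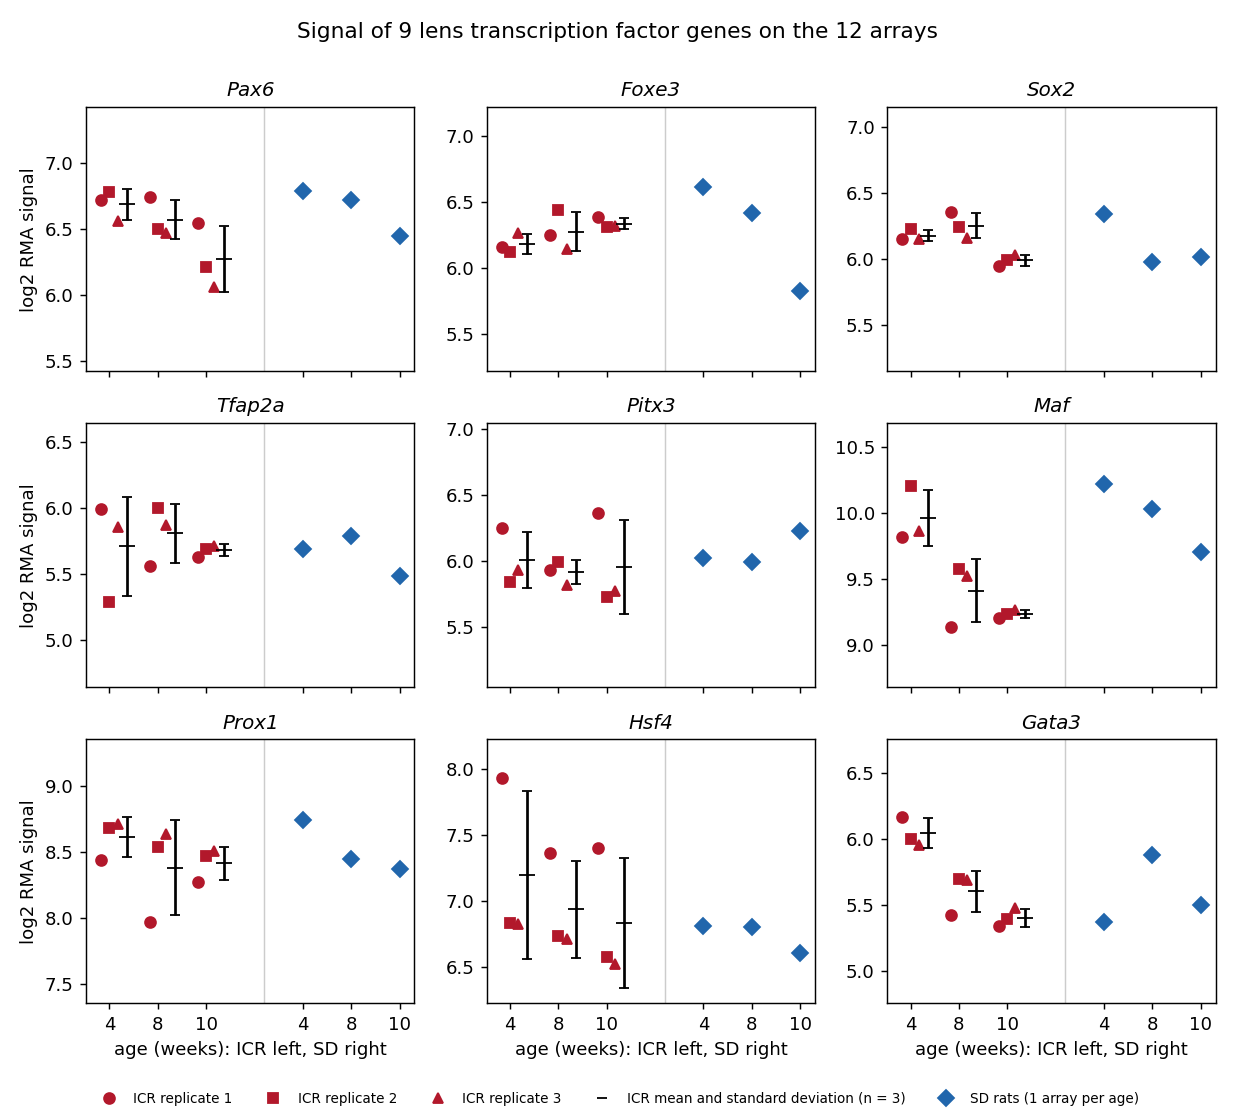
Log2 RMA signal (vertical axis, 2 log2 units in every panel) of the 9 measured members by age in weeks, ICR arrays on the left of each panel and SD arrays on the right. Red symbols are ICR replicates 1 to 3, black bars their mean and standard deviation (n = 3), and blue diamonds single SD arrays. Maf and Gata3 were lower on all 8-week and 10-week than on all 4-week ICR arrays, and Hsf4 was highest on the array numbered 1 at every age.

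Maf (c-Maf) is a basic leucine zipper protein that activates crystallin genes and is needed for fibre elongation in mouse. In ICR lenses its signal was 9.82, 10.20 and 9.86 at 4 weeks, 9.13, 9.57 and 9.52 at 8 weeks and 9.20, 9.23 and 9.26 at 10 weeks (replicates 1, 2 and 3). The 3 arrays at 10 weeks lay close together, below every 4-week array. The mean was 9.23 ± 0.03 (standard deviation, n = 3) at 10 weeks and 9.96 ± 0.21 at 4 weeks, a difference of -0.73 with a standard error of 0.16 (adjusted p = 0.111, limma with Benjamini-Hochberg adjustment over 4546 genes) without the block and of 0.13 (adjusted p = 0.00912) with it. Within replicate numbers 1, 2 and 3 the differences were -0.61, -0.97 and -0.60. At 8 weeks the difference from 4 weeks was -0.55 (adjusted p = 0.754, and 0.101 with the block), and that between 10 and 8 weeks was -0.18, with a 95% interval of -0.55 to 0.20.

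Gata3 encodes a zinc finger protein needed in mouse for fibre cells to leave the cell cycle and mature. Its signal was 6.17, 6.01 and 5.96 at 4 weeks, 5.43, 5.70 and 5.69 at 8 weeks and 5.34, 5.39 and 5.48 at 10 weeks, so that the 10-week arrays lay not far above the limit of detection. Means were 5.40 ± 0.07 at 10 weeks and 6.05 ± 0.11 at 4 weeks (n = 3 each), a difference of -0.64 (adjusted p = 0.0857 and standard error 0.13 without the block, adjusted p = 0.0140 and standard error 0.12 with it). It was lower at 10 than at 4 weeks within each replicate number, by -0.83, -0.61 and -0.48. At 8 weeks it differed from 4 weeks by -0.44 (adjusted p = 0.754, and 0.159 with the block). Over the 9 ICR arrays Maf and Gata3 correlated at 0.91, and over all 12 arrays at 0.564. These arrays share ages and replicate numbers.

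Both calls at 10 weeks were lost when certain arrays were left out. With the block, Maf reached adjusted p = 0.0634 without 4-week replicate 1, 0.0603 without 10-week replicate 2 and 0.0667 without the 3 arrays numbered 1. Gata3 reached 0.0762 without 4-week replicate 1, 0.0731 without 10-week replicate 1, 0.0736 without 10-week replicate 2 and 0.0966 without the 3 arrays numbered 1. The differences themselves stayed between -0.82 and -0.63 for Maf and between -0.72 and -0.52 for Gata3 when 1 array was left out. Of the 6 ciliary body and iris markers tested, 4 were called lower over the same interval with the block, all with 10-week means below 5. The mean of all 13 markers of that list did not overlap between 4 weeks (3.84 to 4.85) and 10 weeks (3.15 to 3.58), so it is tied to age. With that mean as a covariate beside the block, the difference for Maf was -0.60 (standard error 0.23, limma adjusted p = 0.561). For Gata3 the difference was -0.61 (standard error 0.23, adjusted p = 0.558). With the mean of the immediate early genes, which respond to handling within minutes, it was -0.69 for Maf (adjusted p = 0.0463) and -0.70 for Gata3 (adjusted p = 0.0395).

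The other fibre regulators did not pass the threshold. Prox1, a homeodomain protein needed for fibre elongation in mouse, read 8.44, 8.68 and 8.72 at 4 weeks, 7.97, 8.54 and 8.63 at 8 weeks and 8.27, 8.47 and 8.505 at 10 weeks. Its array numbered 1 was the lowest of the 3 at each age. The 10-week minus 4-week difference was -0.20, with a 95% interval of -0.64 to 0.25. Hsf4, a heat shock factor whose loss causes cataract and which controls Dnase2b and small heat shock protein genes in mouse lens, behaved in the opposite way. It read 7.93, 6.84 and 6.82 at 4 weeks, 7.36, 6.74 and 6.71 at 8 weeks and 7.40, 6.57 and 6.52 at 10 weeks. The array numbered 1 exceeded the others of its age by more than the age means differed. The 10-week minus 4-week difference was -0.37, with an interval of -1.21 to 0.48 without the block and of -0.64 to -0.091 with it (adjusted p = 0.0938), and it was 0.0016 without 4-week replicate 1 in the fit without the block.

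Pax6, a paired-domain and homeodomain protein at the head of eye development, is kept in the epithelium and is also transcribed in the ciliary body and iris. It read 6.72, 6.78 and 6.56 at 4 weeks, 6.74, 6.50 and 6.47 at 8 weeks and 6.54, 6.21 and 6.06 at 10 weeks. The highest 10-week array lay just below the lowest 4-week array. The difference between 10 and 4 weeks was -0.41 (standard error 0.16, adjusted p = 0.391, and standard error 0.12, adjusted p = 0.0589 with the block). Without the 3 arrays numbered 1 it was -0.53 (adjusted p = 0.127).

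Sox2, a partner of Pax6 on crystallin enhancers, varied little over the 9 ICR arrays. Its signals were 6.15, 6.23 and 6.15 at 4 weeks, 6.35, 6.24 and 6.16 at 8 weeks and 5.95, 5.99 and 6.03 at 10 weeks. The 10-week minus 4-week difference was -0.19, with an interval of -0.44 to 0.063, and the 10-week minus 8-week difference was -0.26 (unadjusted p = 0.0426, limma adjusted p = 0.9997). Foxe3, a forkhead protein that keeps the epithelium proliferating, read 6.16, 6.12 and 6.26 at 4 weeks, 6.25, 6.44 and 6.14 at 8 weeks and 6.38, 6.31 and 6.32 at 10 weeks. It was the only member of the 9 that was higher on all 10-week arrays than on all 4-week arrays. The difference was 0.16, with an interval of -0.12 to 0.43, and it turned to -0.059 with the ciliary body and iris covariate.

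Tfap2a (AP-2α), which acts in the epithelium of mouse lens, read 5.997, 5.29 and 5.85 at 4 weeks, 5.56, 5.999 and 5.87 at 8 weeks and 5.63, 5.69 and 5.72 at 10 weeks. Its spread at 4 weeks, a standard deviation of 0.38, exceeded its difference of -0.033 between 10 and 4 weeks. Pitx3, a homeodomain protein whose loss gives small lenses in mouse, read 6.24, 5.84 and 5.93 at 4 weeks, 5.93, 5.99 and 5.81 at 8 weeks and 6.36, 5.72 and 5.77 at 10 weeks. Its 10-week minus 4-week difference was -0.053, with an interval of -0.51 to 0.40, and the directions of both small differences changed with the normalization.

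Between 10 and 4 weeks, 0 of the 9 members passed an adjusted p of 0.05 in limma when no block was used, and 3 reached an unadjusted p under 0.05. Of the 4546 genes tested, 501 reached that unadjusted p and 0.154% passed the adjusted one, all of them lower. With the block 2 of 9 passed, both lower, where 8.91% of genes passed in either direction and 7.33% were lower. The 2 became 0 without 4-week replicate 1, 10-week replicate 2 or the 3 arrays numbered 1, and 1 without 10-week replicate 1. Age groups did not overlap for 5 of 9 members, against 17.2% of all genes. Of the 9, 8 lay below 0, as did 65.5% of all genes, and the median was -0.20 for the members and -0.099 for all genes.

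Between 8 and 4 weeks, 0 members passed, where 0% of genes passed without the block and 0.176% with it. An unadjusted limma p under 0.05 was reached by 2 members, against 246 of 4546 genes without the block and 649 with it. Groups did not overlap for Maf and Gata3, 2 of 9 members, against 10.4% of all genes. Of the remaining members, differences ran between -0.26 (Hsf4) and 0.098 (Tfap2a). Between 10 and 8 weeks 0 members passed, where 0% of genes passed without the block and 0.22% with it. An unadjusted limma p under 0.05 was reached by 1 member without the block and 2 with it, against 87 and 421 genes. Here Sox2 alone among the members did not overlap, against 6.58% of all genes.

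**Figure D2:**
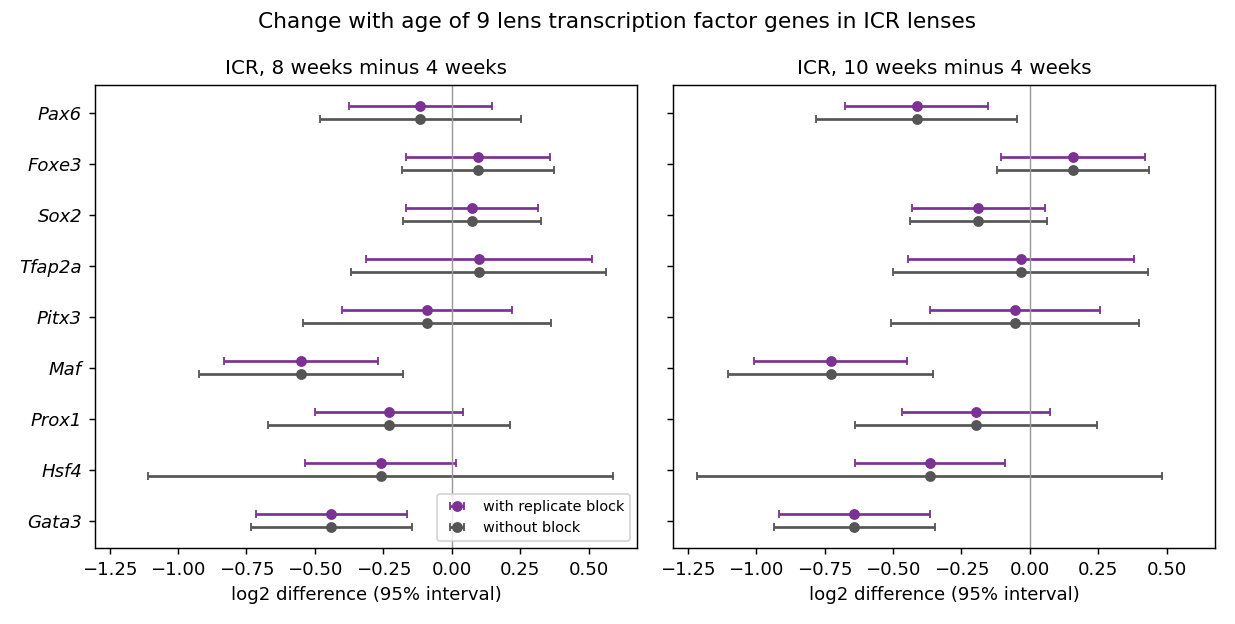
Log2 difference (horizontal axis) of the 9 members in ICR lenses, 8 weeks minus 4 weeks on the left and 10 weeks minus 4 weeks on the right, with 95% intervals from limma (not adjusted for the number of genes). Purple is the fit with the replicate block and grey the fit without it. Both fits give the same differences, and the block shortens the interval most for Hsf4, from -1.21 to 0.48 without it and from -0.64 to -0.091 with it at 10 weeks.

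The second question was whether epithelial and fibre regulators moved apart. For each array, the deviation of a gene from its own 4-week ICR mean was averaged over the 4 epithelial regulators and over the 4 measured fibre regulators. The fibre regulators averaged -0.40, -0.54 and -0.51 on the 10-week ICR arrays and -0.48, -0.32 and -0.31 on the 8-week ones. The epithelial regulators averaged -0.063, -0.14 and -0.16 at 10 weeks and 0.038, 0.10 and -0.027 at 8 weeks. Epithelial minus fibre values were -0.069, -0.062 and 0.13 at 4 weeks, 0.52, 0.42 and 0.29 at 8 weeks and 0.34, 0.40 and 0.36 at 10 weeks. All 6 ICR arrays at 8 and 10 weeks, the ages with cortical opacity, thus lay above the 3 at 4 weeks. The 4-week mean is 0 by construction and the gap was not tested. Without Maf and Gata3, the fibre side held only Prox1 and Hsf4, and the values were -0.21, 0.061 and 0.15 at 4 weeks, 0.28, 0.37 and 0.203 at 8 weeks and 0.0048, 0.24 and 0.23 at 10 weeks. The 8-week values still lay above all 4-week values, and the 10-week values overlapped them.

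In SD lenses, set against the same ICR 4-week means, epithelial minus fibre was 0.34, 0.20 and 0.16 at 4, 8 and 10 weeks. The lone 4-week SD array thus lay at the level of the 10-week ICR arrays, and the later SD arrays lower. Both sets fell in SD, the epithelial regulators reaching -0.25 and the fibre regulators -0.41 at 10 weeks, against 0.17 and -0.17 at 4 weeks.

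**Figure D3:**
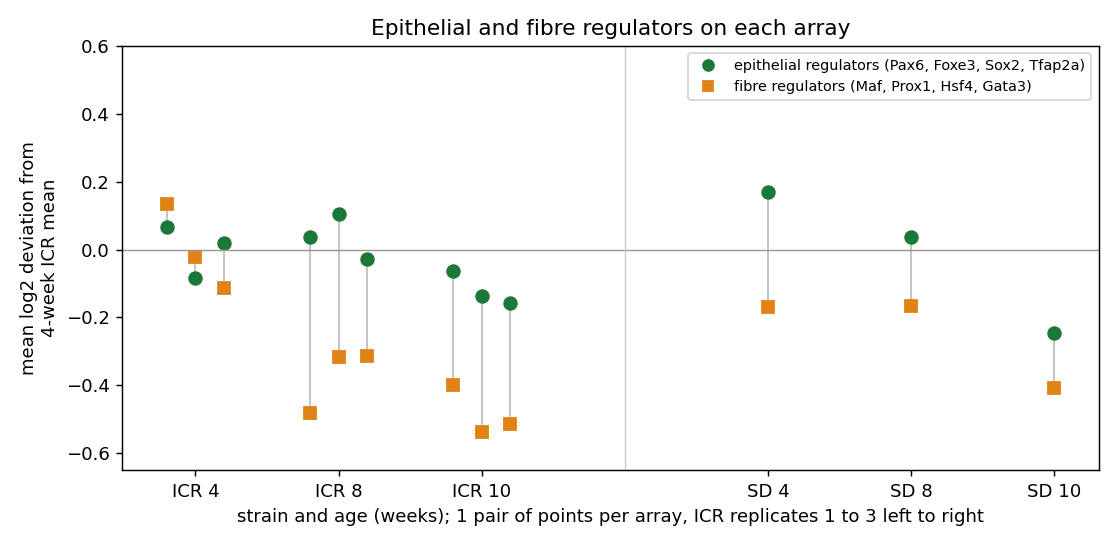
Mean log2 deviation from the 4-week ICR mean (vertical axis) of the epithelial regulators (green circles) and fibre regulators (orange squares) on each of the 12 arrays, by strain and age in weeks. The pair of points of an array is joined by a line. Fibre regulators lay below epithelial ones on all 6 ICR arrays at 8 and 10 weeks, by 0.29 to 0.52, and on the 3 SD arrays, by 0.16 to 0.34.

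The third question was whether the strains differed. Over matched ages, with age as a factor, Maf was lower in ICR than in SD lenses by -0.45 (standard error 0.13, adjusted p = 0.221, limma). All 9 ICR arrays lay below the SD array of the same age. A single array often lies outside 3 others, and the share of all genes for which it did was not computed. SD lenses read 10.22, 10.03 and 9.70 at 4, 8 and 10 weeks, and the ICR means minus SD were -0.26, -0.62 and -0.47. Maf was the one member to pass with a fixed replicate block (adjusted p = 0.0120), but that fit leaves the spread between replicate numbers out of the error of the SD arrays. A random block was set by the replicate number in ICR. The 3 SD arrays, whose titles carry no number, were put into a shared block. That block is the same as the strain, so the standard error below depends on this choice. With the correlation of 0.556 estimated within blocks, the standard error was 0.22 and the limma adjusted p was 0.999. Of the 9 members, 0 passed with no block, where 0.67% of 4627 genes passed. Without a block 1 member reached an unadjusted limma p under 0.05, as did 446 of all genes. With the fixed block 1 member passed, where 18.9% of genes did, and with the random block 0 passed, where 0.151% did. The other 8 members differed between the strains by -0.14 (Pax6) to 0.25 (Hsf4), and the value for Hsf4 was -0.040 without the 3 arrays numbered 1. The median was -0.021 for the 9 members, 5 of them below 0, and 0.10 for the 4627 genes, 32.1% of them below 0. With the fixed block 746 genes were called higher and 127 lower.

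Foxe3 and Gata3 had the largest differences between the strains in their age course, and neither passed the test of that difference. Foxe3 changed by 0.16 from 4 to 10 weeks in ICR means, against -0.79 in SD, where single arrays read 6.61, 6.42 and 5.83 at 4, 8 and 10 weeks. All ICR arrays lay below the SD array at 4 weeks and above it at 10 weeks. The difference of the changes was 0.94 (95% interval 0.39 to 1.497, unadjusted p = 0.00421, limma adjusted p = 0.99999, and 0.403 with the block). Gata3 changed by -0.64 in ICR means, against 0.14 in SD, with SD arrays at 5.37, 5.88 and 5.51. All ICR arrays lay above the SD array at 4 weeks and below it at 8 and 10 weeks. Of the 9 members, only Tfap2a and Pitx3 overlapped the SD array at 4 weeks. Lying wholly above or below that array is therefore not particular to Foxe3 or Gata3. The difference of its changes was -0.78 at 10 weeks (interval -1.36 to -0.19, adjusted p = 0.99999) and -0.95 at 8 weeks (interval -1.54 to -0.36, unadjusted p = 0.00562, adjusted p = 0.9998). These differences all include the single 4-week SD array. The log2 summed signal of the immediate early genes, which respond to handling, was 11.02 on that array, against 9.05 and 9.46 on the 8-week and 10-week SD arrays, and 8.23 to 11.28 on the 4-week ICR arrays. In the same difference of changes, 12 of 12 immediate early genes lay above 0 at 8 weeks (median 1.79) and 11 of 12 at 10 weeks (median 0.87), and the medians of the ciliary body and iris markers were -1.16 and -0.87. With the mean of all 13 ciliary body and iris markers as a covariate, the difference of changes at 10 weeks was 0.84 for Foxe3. For Gata3 it was -0.76 at 10 weeks and -0.92 at 8 weeks. The part of the immediate early genes in these values was not tested. For Maf, which changed by -0.73 in ICR and by -0.52 in SD, the difference was -0.21 with an interval of -0.96 to 0.54.

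Of the 9 members, 0 passed the test of a strain difference in the 10-week change and 0 that in the 8-week change. An unadjusted limma p under 0.05 was reached by 2 and 1 of them, against 70 and 39 of 4627 genes without the block. Of all genes 0% and 0% passed without the block, and 0.0216% and 0.0216% with it, 1 gene each. These tests take 1 SD array per age to vary as ICR arrays do. In SD lenses alone Pax6 read 6.79, 6.72 and 6.45 at 4, 8 and 10 weeks, Sox2 6.34, 5.98 and 6.02, Tfap2a 5.69, 5.79 and 5.48 and Pitx3 6.02, 5.99 and 6.22. Prox1 read 8.74, 8.44 and 8.37 and Hsf4 6.81, 6.80 and 6.61 at the same ages. Pax6 changed by -0.34 from 4 to 10 weeks in SD lenses, close to its -0.41 in ICR lenses, with a difference of -0.071 and an interval of -0.80 to 0.66.

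Known targets of these factors were then examined in ICR lenses. Of 25 targets listed, 18 had a probe set of a single symbol and all 18 were tested. Between 10 and 4 weeks, 1 was lower and 0 were higher without the block, and 4 were lower and 1 was higher with it. Of all 4546 genes, 7 were lower and 0 higher without the block, and 333 were lower and 72 higher with it. The median of the 18 was -0.078, and that of all genes -0.099. The 4 lower genes were Crygf, Cryge and Crygn, which encode γ-crystallins, and Dnase2b, which encodes the nuclease that clears DNA from fibre cells. Probe sets of the γ-crystallin genes may share signal, since these genes are close paralogs.

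Dnase2b read 6.56, 5.95 and 5.65 at 10 weeks and 8.13, 7.36 and 7.18 at 4 weeks, and it was at 6.78 in the 10-week and 6.82 in the 4-week SD lens. The 3 γ-crystallin genes were lower at 10 weeks in the single SD lenses too. Crygf averaged 8.86 at 10 weeks and 11.07 at 4 weeks in ICR lenses, and read 8.53 and 10.59 in SD lenses. Cryge averaged 9.82 and 11.46 in ICR lenses and read 10.43 and 11.485 in SD lenses at the same ages, and Crygn averaged 9.30 and 10.86 in ICR lenses and read 9.23 and 10.40 in SD lenses. Hspb1, which encodes a small heat shock protein, read 9.52, 8.57 and 8.42 at 10 weeks and 9.04, 7.88 and 8.20 at 4 weeks. It rose by 0.46 (standard error 0.12, limma adjusted p = 0.0424 with the block) and did so within each replicate number. In the single SD lenses it read 8.59, 8.70 and 8.49 at 4, 8 and 10 weeks. Its window shown above held GAANNTTC at 2 places, and that of Dnase2b held ACAAAG at 1. Among the 4 lower targets with a window, Crygf also held ACAAAG, and Cryge and Crygn held none of the 3 motifs. The remaining 13 targets, which include Cryab, Crygs, Mip and Lim2, lay between -0.30 (Crygc) and 0.20 (Cdkn1b). Of these 13, 10 had 4-week means of 11.1 (Crygb) to 13.1 (Cryba1), where the highest signal of an array was 13.06 to 13.26. Close to that highest signal a change can be understated, which was not tested. Crygf and Cryge were called lower from 4-week means of 11.07 and 11.46.

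**Figure D4:**
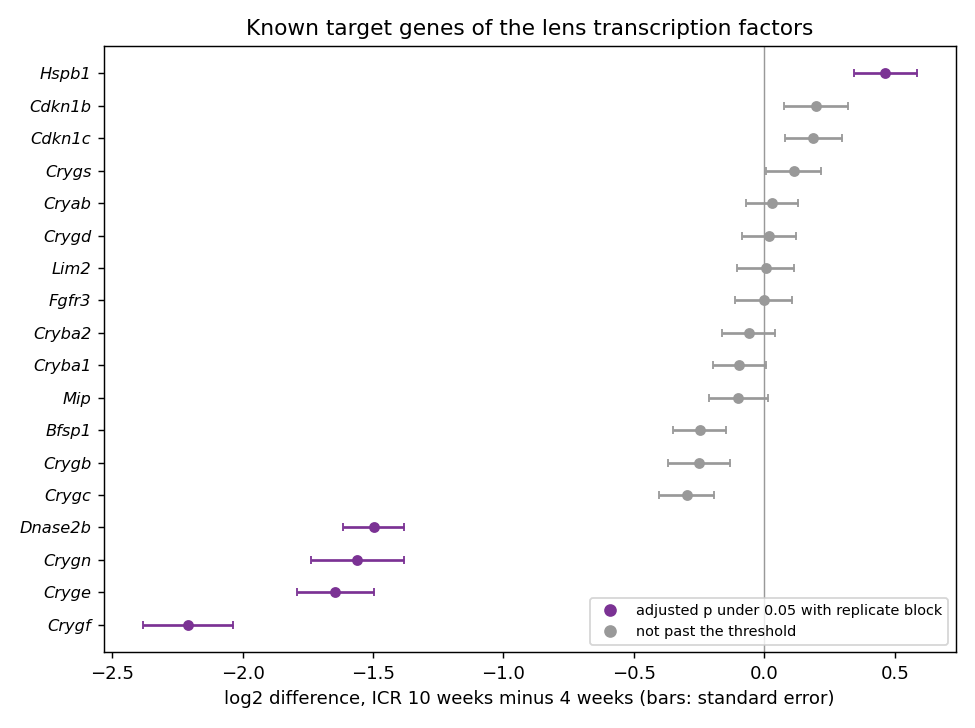
Log2 difference between 10 and 4 weeks in ICR lenses (horizontal axis) of the 18 measured target genes, from the limma fit with the replicate block, with bars of 1 standard error. Purple marks genes past an adjusted p of 0.05, which were Hspb1 on the right of 0 and Dnase2b, Crygn, Cryge and Crygf on the left.

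Among 30 other transcriptional regulators of lens development, 16 were tested between 10 and 4 weeks. In limma 0 passed with no block, where 3 reached an unadjusted p under 0.05, and 1 with the block, Meis1, a homeodomain protein that regulates Pax6 in mouse lens placode. Meis1 read 3.31, 3.23 and 3.50 at 10 weeks and 3.88, 5.12 and 3.87 at 4 weeks. It entered the test only through that one 4-week array above 5, with all other ICR arrays below the limit of detection, so its call is not read as a fall. Mafk, a small Maf protein, was at 0.39 (adjusted p = 0.0709 with the block), and Crebbp, a co-activator of Maf on crystallin genes, at -0.39 (adjusted p = 0.0996 with the block). The median of the 16 was -0.14, and that of all genes -0.099. Of all 4546 genes, 501 reached an unadjusted limma p under 0.05 without the block, and 8.91% were called with it.

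Of lens epithelium markers, 9 of 14 were tested, and 3 were lower between 10 and 4 weeks with the block (Ptn, Ccnd2 and Slc2a1) and 0 without it (limma, 4 at an unadjusted p under 0.05). Their median was -0.37, where that of all genes was -0.099. Over all 4546 genes, 8.91% were called with the block (333 lower and 72 higher) and 0.154% without it. An unadjusted limma p under 0.05 was reached by 501 genes without the block and by 1207 with it. Of fibre markers, 14 of 18 were tested. With the block 4 were lower (Capn3, Dnase2b, Gje1 and Rbm24) and 2 higher (Hopx and Lgsn), and without it only Capn3 passed, lower. Their median was -0.17. Of these called genes, Ptn, Capn3 and Gje1 had 10-week means below 5, so part of each fall lies below the limit of detection taken here. Of 6 ciliary body and iris markers tested, 4 were lower with the block and 0 without it (6 at an unadjusted p under 0.05). All 4 (Enpp2, Fbn1, Slc13a3 and Slc26a4) had 10-week means below 5, and Slc13a3 reached 5 only at 4 weeks. All 6 lay below 0, with a median of -1.80 that is set in part by signals below the limit of detection. Of 12 immediate early genes, 0 passed in either fit (an unadjusted p under 0.05 was reached by 0 without the block and 6 with it), with a median of -0.72, and 2 of them reached 5 only at 4 weeks.

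The genes whose pattern over the 12 arrays lay closest to each member were also listed, as a description among 4626 other genes. For Maf these were Mtmr3, Nhsl1 and Zbtb7b (r of 0.955, 0.945 and 0.936), and for Gata3 Proser1, Flrt2 and Abr (r of 0.943, 0.924 and 0.915). For Pax6 they were Vps54, Nek7 and Pgap2 (0.951, 0.94 and 0.924), and for Sox2 Pafah1b2, Arglu1 and Hnrnpm (0.841, 0.83 and 0.821). Prox1 was followed by Rc3h1, Ttyh3 and Ubap2l (0.954, 0.952 and 0.931) and Hsf4 by Ndufs3, Adrm1 and Ubl7 (0.981, 0.976 and 0.976). The closest to Foxe3 reached only 0.776 (Bpnt2), 0.734 (Sdc3) and 0.717 (Ahctf1). For Tfap2a they were Phf2, Ube4b and Tcf7l1 (0.919, 0.832 and 0.794), and for Pitx3 Hmg20b, Cstf2t and Rab5b (0.867, 0.846 and 0.785). Among the members, Hsf4 and Pitx3 correlated at 0.616 over 12 arrays and at 0.818 over the 9 ICR arrays, where both were highest on the array numbered 1 at 4 and 10 weeks, and Prox1 and Hsf4 at -0.449 and -0.516.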

How the data were processed

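Lenses of male ICR rats (9 arrays, 3 each at 4, 8 and 10 weeks) and SD rats (3 arrays, 1 per age) were compared, grouped by the sample labels. The deposited values are log2 signals per probe set after Robust Multi-array Average, run by the authors in R. For that step, the package and version are not stated, nor whether one run covered all 12 arrays. A shift shared by all genes would not be seen after this step. Of 36685 probe sets, 18511 have 1 symbol in the platform annotation, 575 several and 17599 are not listed there. Where a gene had several (291 genes), the one with the highest mean over the ICR arrays was used. Genes with a signal of 5 or more on at least 1 array in the fit were tested with lmFit and eBayes of limma 3.58.1 (R 4.3.3), 2-sided, with Benjamini-Hochberg adjustment over all genes tested and a threshold of 0.05. Ages were compared in ICR (3 ages in one fit), strains over 12 arrays with age as a factor, and age courses by the strain by age interaction.

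In the fits with the block, the 9 ICR arrays were taken as paired by the replicate number in their titles. Each of the 9 same-numbered correlations of deviations was above 0.1. Arrays numbered 2 and 3 at different ages also correlated at 0.345 to 0.508, so the rule does not tell these numbers apart. The labels do not say what a number stands for. Alternatives were the replicate block, other filters and normalizations, a variance trend, array weights, other probe set rules, a ciliary body and iris covariate and leaving out arrays. The fits were tested on simulated data with known changes. Members, gene lists and naming rules (all members, in each list up to 4 of the smallest p and those past the threshold, the 3 nearest genes) were chosen with earlier results of these data known. Sequences are from RefSeq, build GRCr8. Motif counts cover windows of 300 bases. Figures were drawn with matplotlib 3.10.9.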

Additional observations from a re-analysis of the deposited data

How the results depend on the processing

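The 54 member differences were recomputed under 1116 combinations with other settings. Of these, 1042 kept direction and side of the threshold, 6 passed it under the alternative alone and 68 had the opposite sign, all starting from differences of at most 0.37 that had not passed. Between 10 and 4 weeks, 0 members passed without the block, against 2 with array weights (Maf at -0.72, adjusted p = 0.0278, and Gata3 at -0.56, adjusted p = 0.0301, limma; 86 of all genes) and 2 with the replicate block (405 of all genes, against 7). Leaving out 1 array gave 0 to 0 members there and in every other comparison without the block. Between the strains, 0 members became 1 (Maf) with array weights (adjusted p = 0.0274) or the fixed replicate block. The block changed no other member's call in the comparisons run.

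The 2 calls with the replicate block between 10 and 4 weeks became 0 with no filter (83 of all genes), 0 with the ciliary body and iris covariate, 0 without the block, 0 without the 3 arrays numbered 1, 1 with probe sets without a single gene kept and 4 when the variance was fitted robustly with a trend. They were 0 to 2 when 1 array was left out, with 81 to 415 genes called in all. These settings combined with the block were chosen after seeing the data, and the cause of the changes was not tested beyond what each setting leaves out.

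Signs turned between 10 and 4 weeks for Foxe3 with the ciliary body and iris covariate (-0.059) and for Tfap2a with quantile normalization (0.075), cyclic loess (0.058), array weights (0.017) and without the 3 arrays numbered 1 (0.13). Pitx3 turned with quantile normalization (0.040) and cyclic loess (0.044). With 1 array left out, Tfap2a ranged from -0.25 to 0.11, Hsf4 from -0.65 to 0.0016 and Pitx3 from -0.26 to 0.067. Foxe3, Gata3, Tfap2a, Sox2 and Pitx3 lie not far above the limit of detection taken here. Signals below it are still reported, and whether a fall would be understated there was not tested.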
